A study of Mus musculus with 4 samples.

Results

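Activator protein 1 (AP-1) is a dimeric transcription factor assembled from FOS-type, JUN-type and ATF-type basic leucine zipper (bZIP) proteins. The transcripts of 10 of its subunits were followed here: Fos, Fosb, Fosl1 and Fosl2 of the FOS type, Jun, Junb and Jund of the JUN type, and Atf3, Batf3 and Jdp2 of the ATF type. They were chosen by symbol, and each had 1 row among the 24907 genes of the count table. FOS proteins do not form stable dimers with each other and pair mainly with JUN proteins, whereas JUN proteins also pair among themselves. AP-1 dimers bind short palindromic sites, and in epidermis they act on keratinocyte growth, differentiation, wound response and tumour invasion. The partner a FOS protein finds therefore depends in part on which JUN subunits a cell makes.

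RNA was sequenced from ASZ001 cells, a mouse line derived from a basal cell carcinoma (BCC). The control cells carried an empty doxycycline-inducible vector and the c-FOS cells carried the same kind of vector with c-FOS. Both received doxycycline, and there were 2 libraries per group, all from the 1 line. The series title names a basal to squamous carcinoma transition as the setting, and the comparison asks how the other subunits stood once c-FOS was expressed. The libraries held 28405433 to 32465409 counts. Cells with the c-FOS vector but no doxycycline are not analysed here, so induction and other differences between the 2 kinds of cell cannot be told apart. The labels do not name separate cultures for the libraries of a group. The p-values then reflect nothing beyond the spread of these libraries, which may be technical.

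The threshold used throughout is a Benjamini-Hochberg adjusted p of 0.05 from the quasi-likelihood test of edgeR, and 8589 of 12791 genes (67.1%) passed it. With so many genes changed, a call for a subunit says little by itself, and its size, direction and abundance are given below. Of the tested genes, 4324 (33.8%) were higher and 4265 (33.3%) lower with c-FOS. With library totals in place of TMM scaling factors, 3217 were higher and 5879 lower, and the median log2 fold change of all tested genes went from -0.01 to -0.14.

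Markers of the labelled cell type were abundant as a sum, but most of them and markers of several other cell types moved with the group. The summed level of 10 basal keratinocyte and BCC markers, such as Krt5, was 31782 to 32126 on the counts-per-million (CPM) scale in control. It was 15505 to 16048 CPM in c-FOS libraries. Of the 10 markers, 9 fell and Epcam did not pass. The lowest in control were Gli1 and Ptch1, with means of 15.1 and 16.9 CPM. Of 8 fibroblast markers 4 were tested and 3 rose, with a sum of 5.45 to 5.68 CPM in control and 17.7 to 19.2 CPM in c-FOS libraries. Most of that sum was Pdgfra, with means of 4.24 CPM in control and 11.6 CPM with c-FOS, and Col1a2 and Pdgfrb also rose. Col1a1 did not pass, and Dcn, which was not tested, had means of 0.455 CPM in control and 0.136 CPM with c-FOS. Thy1 was at 0 in every library and Col3a1 reached at most 0.0323 CPM. Of 9 leukocyte markers 3 were tested and all 3 rose. The sum of the 9 was 17.0 to 18.9 CPM in control and 41.6 to 45.0 CPM in c-FOS libraries. Most of that rise lay in Csf1r, which went from 0.404 and 0.224 to 18.4 and 18.5 CPM. Cd3e and Cd79a were at 0 throughout, and Ptprc reached at most 0.108 CPM. Of 6 endothelial markers 3 were tested and all 3 rose, with Kdr at 0 throughout. The sum of the 6 was 113.1 to 113.3 CPM in control and 212 to 216.2 CPM in c-FOS libraries. Nearly all of it was Pecam1 and Flt1, whose means went from 81.3 to 100.6 CPM and from 30.9 to 111.3 CPM. Of 5 melanocyte markers 2 were tested and neither passed. The sums were 49.4 to 51.7 CPM in control and 48.5 to 51.2 CPM in c-FOS libraries. Nearly all of this was Mitf, with means of 49.8 CPM in control and 49.4 CPM with c-FOS, while Tyr and Mlana were at 0 throughout. The part of these shifts in the subunit results was not tested. In bulk RNA, fewer cells of a type and less RNA per cell cannot be told apart.

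Several AP-1 genes carry binding sites for bZIP factors in their own promoters, so the bases before the start of each gene are shown where a searched motif was found. RefSeq promoter windows (GRCm38.p6) were matched by symbol for 9 of the 10 subunits, Fosl1 being the exception. The 250 bases before each annotated start were searched on both strands. The motifs were TGANTCA, a looser form of the AP-1 site with any base at N, TGACGTCA, the cyclic AMP response element, and its variant TGACATCA. Also searched were the half-site TGACG, which overlaps TGACGTCA, and the CArG box bound by serum response factor. Of 32851 promoter windows of this length, 6.75% held TGANTCA, 1.55% TGACGTCA, 2.93% TGACATCA, 17.8% TGACG and 1.47% a CArG box. These shares are not matched for GC content. Its median over all windows was 52.4%, and the subunit windows with a match ran from 58.4% (Fos) to 72.4% (window 2 of Jdp2). The last 150 bases before the start are printed below, 5′ to 3′ on the strand of the gene, with motif matches in capitals.
Fos, chr12:85473740-85473889, plus strand: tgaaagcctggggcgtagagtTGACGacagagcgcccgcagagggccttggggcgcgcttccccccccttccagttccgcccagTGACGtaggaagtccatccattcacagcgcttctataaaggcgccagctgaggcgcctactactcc
Fosb, chr7:19310046-19310195, minus strand: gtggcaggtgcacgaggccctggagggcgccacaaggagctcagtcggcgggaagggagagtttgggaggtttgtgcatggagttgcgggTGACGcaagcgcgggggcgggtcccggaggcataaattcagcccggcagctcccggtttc
Jun, chr4:95052223-95052372, minus strand: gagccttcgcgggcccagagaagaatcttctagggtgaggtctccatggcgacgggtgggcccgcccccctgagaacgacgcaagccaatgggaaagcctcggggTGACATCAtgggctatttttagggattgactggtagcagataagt
Junb, chr8:84978749-84978898, minus strand: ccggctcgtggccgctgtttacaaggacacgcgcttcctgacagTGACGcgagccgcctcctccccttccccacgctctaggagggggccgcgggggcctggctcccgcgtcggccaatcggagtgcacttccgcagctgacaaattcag
Atf3, chr1:191183334-191183483, minus strand: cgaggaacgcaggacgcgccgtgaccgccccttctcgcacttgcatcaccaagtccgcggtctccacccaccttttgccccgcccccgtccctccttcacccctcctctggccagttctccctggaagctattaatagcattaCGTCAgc
Jdp2, window 2 of 3, chr12:85599266-85599415, plus strand: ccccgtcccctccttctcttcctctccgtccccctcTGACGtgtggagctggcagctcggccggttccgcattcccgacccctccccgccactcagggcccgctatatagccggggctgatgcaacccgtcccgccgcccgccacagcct

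None of the 9 subunits had TGANTCA, TGACGTCA or a CArG box within its 250 bases, which says only that these letters are not in these windows. Jun held TGACATCA at positions -45 to -38, counting the base before the start as -1. Fos held the half-site TGACG at -129 to -125 and at -66 to -62, Fosb at -60 to -56 and Junb at -106 to -102. Atf3 held its reverse complement CGTCA at -7 to -3, and window 2 of the 3 annotated for Jdp2 held TGACG at -114 to -110. The windows of Fosl2, Jund and Batf3 held none of the motifs. In GENCODE M21 an exon of Fosl2 covers all of the last 150 bases of its window, exons of Jdp2 and Gm47863 likewise cover those of window 1 of Jdp2, and exons of Batf3, Atf3 and Fosb cover 89, 7 and 6 of those of theirs, so that some annotated transcripts start further upstream. A Fos transcript from the vector does not have to start at the Fos promoter shown here.

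All 4 FOS-type transcripts rose, although the call for Fosb did not hold in every alternative. Fos, the gene the vector carries, had 12 and 11 deposited counts in control, against 8255.5 and 9706.5 with c-FOS. Both libraries labelled c-FOS were thus far above both control libraries, and the labels hold for the targeted gene. On the scale of levels these were 0.404 and 0.351 CPM against 296.8 and 313.4 CPM. With counts summed over each group and scaled by effective (TMM) library sizes, the c-FOS to control ratio was 811. Its exact 95% counting interval was 540.3 to 1280. Deposited counts do not separate transcripts of the vector from those of the chromosomal gene. No source used here gives the species or the extent of the c-FOS insert. How fully its reads align to mouse Fos is thus unknown. This bears on the level of Fos and on each share and ratio that includes it.

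Fosl2, which encodes a Fos-related protein without the strong activation domain of c-FOS, stood at 633.1 and 625.1 CPM in control and at 1362 and 1412 CPM in c-FOS libraries. The replicates lay close together and the groups did not overlap, as was also the case for 83.6% of all genes tested. Fosl2 was 2.20-fold higher, a log2 fold change of 1.14 ± 0.04 (SE; edgeR adjusted p = 4.62e-12), and 6.67% of all tested genes had a higher fold change.

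Fosl1 encodes the other Fos-related protein, which is often high in invasive carcinoma cells. It was close to absent in control, with 0.168 and 0.0639 CPM from 4.5 and 2 counts, and stood at 5.07 and 5.17 CPM in c-FOS libraries from 141 and 159.5 counts. The rise was thus large in fold and small in level. Its log2 fold change was 5.43 ± 0.30 (SE; edgeR adjusted p = 1.25e-09), and 0.633% of all tested genes had a higher one. It was 6.24 without control replicate 1 and 4.89 without control replicate 2. The ratio of summed counts, scaled by effective (TMM) library sizes, was 44.7, with an exact 95% counting interval of 21.4 to 112. These counting intervals cover counting error only.

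Fosb, an immediate early FOS subunit, had 2.69 and 3.19 CPM in control and 4.31 and 3.71 CPM in c-FOS libraries. The groups did not overlap, but the gap between the nearest libraries was about as large as that within a group. Fosb rose by 0.44 ± 0.16 on the log2 scale (SE; edgeR adjusted p = 0.025). It did not pass in DESeq2 (adjusted p = 0.157), with library totals (0.103), without control replicate 1 (0.105) or without c-FOS replicate 1 (0.186), and over all alternatives the adjusted p lay between 0.00771 and 0.186.

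**Figure D1:**
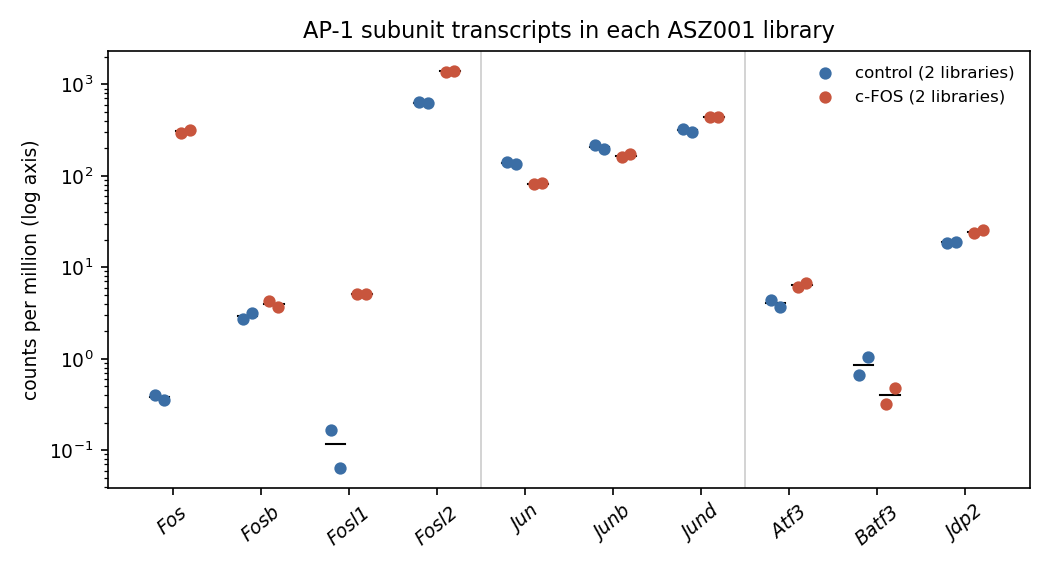
Level in CPM (vertical axis, log scale) of the 10 AP-1 subunit transcripts in each of the 2 control (blue) and 2 c-FOS (red) libraries, with black bars for group means and vertical lines between the FOS, JUN and ATF types. Fos moves from 0.351 and 0.404 CPM to 296.8 and 313.4 CPM, and Jun, Junb and Batf3 are the 3 that are lower with c-FOS.

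The JUN-type partners moved in different directions: Jun and Junb fell and Jund rose. Jun, the classical partner of c-FOS, had 142.5 and 133.7 CPM in control and 81.6 and 82.8 CPM in c-FOS libraries. Both c-FOS libraries were well below both controls. Jun was 1.68-fold lower, a log2 fold change of -0.75 ± 0.04 (SE; edgeR adjusted p = 2.49e-09).

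Junb, a JUN subunit that can restrain Jun activity in some settings, had 215.1 and 195.4 CPM in control and 159.1 and 171 CPM in c-FOS libraries. The groups were separate, although the control libraries differed from each other by almost as much as the nearest libraries of the 2 groups. The change in Junb was -0.31 ± 0.05 on the log2 scale (SE; edgeR adjusted p = 7.26e-05). In the GENCODE M21 annotation, 173 exonic bases of Junb overlap Prdx2 on the opposite strand, and no source used here gives the strand setting of the counting. Prdx2, a peroxide-reducing enzyme, was also lower, with a log2 fold change of -0.28, and its part in the value for Junb was not tested.

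Jund, the JUN subunit typical of resting and differentiating cells, had 328.4 and 304 CPM in control and 439.8 and 441.4 CPM in c-FOS libraries. Both c-FOS libraries were above both controls. Jund was 1.39-fold higher, a log2 fold change of 0.48 ± 0.04 (SE; edgeR adjusted p = 1.55e-07). The 95% intervals of the log2 fold changes were -0.84 to -0.65 for Jun, -0.42 to -0.21 for Junb and 0.39 to 0.57 for Jund, and they do not overlap.

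Among the ATF types, Atf3 and Jdp2 rose and Batf3 fell. Atf3, a stress-inducible factor that can repress or activate in its different dimers, had 4.44 and 3.64 CPM in control and 6.11 and 6.78 CPM in c-FOS libraries. Its groups were separate, and its log2 fold change was 0.68 ± 0.14 (SE; edgeR adjusted p = 0.000568). Jdp2, which encodes a Jun dimerization protein that represses AP-1 targets, had 18.6 and 19.1 CPM in control and 23.7 and 25.3 CPM in c-FOS libraries. Its replicates were close and its groups separate, and with TMM factors and all libraries its rise was the smallest of the 7, a log2 fold change of 0.38 ± 0.07 (SE; edgeR adjusted p = 0.000497).

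Batf3, known chiefly for its part in dendritic cell development, was near the limit of detection. Its deposited counts were 20 and 32.5 in control and 8.5 and 14.5 in c-FOS libraries, or 0.673 and 1.05 against 0.324 and 0.484 CPM. The groups did not overlap, but the libraries within each group differed widely. Batf3 fell by 1.08 ± 0.37 on the log2 scale (SE; edgeR adjusted p = 0.0183). It did not pass in DESeq2 (adjusted p = 0.152), without control replicate 2 (0.16) or without c-FOS replicate 1 (0.158), within a range of 0.00186 to 0.16, and the filter at a minimum count of 50 removed it.

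In all, 7 of 10 subunits rose and 3 fell (median log2 fold change 0.46). These counts and the median include Fos, whose rise was set by the design, since the vector carries it. The others that rose were Fosb, Fosl1, Fosl2, Jund, Atf3 and Jdp2. Over all genes tested 67.1% were called in either direction, with 33.8% of all tested genes higher, and the median was -0.01. The direction held for each of the 10 subunits in every alternative in which it was tested. Past 2-fold, 3 rose (Fos, Fosl1 and Fosl2) and 1 fell (Batf3, which was at -0.71 without control replicate 2 and -0.83 without c-FOS replicate 1, both short of 2-fold), whereas of all tested genes 989 rose and 986 fell by that much. With all libraries the other 6 subunits changed by less than 2-fold.

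**Figure D2:**
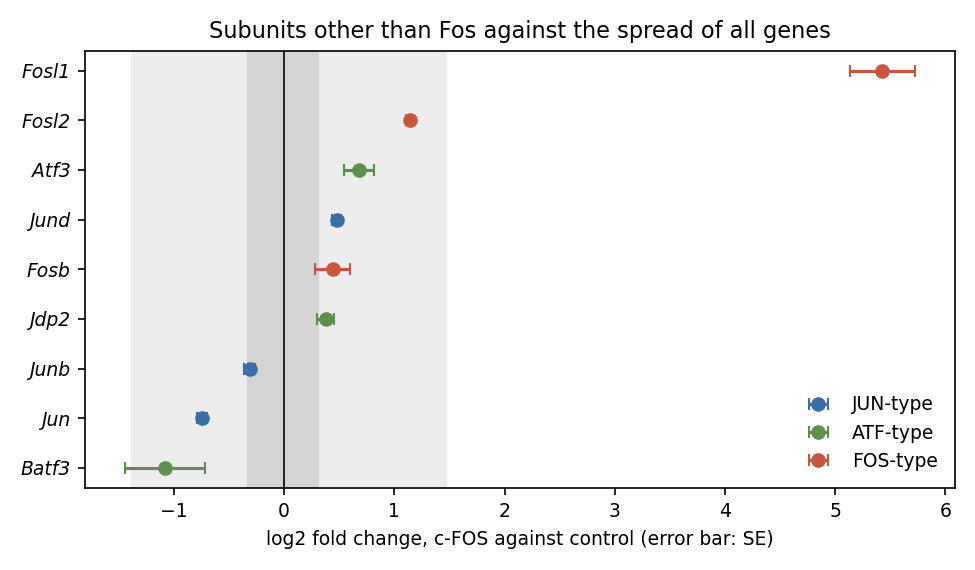
Log2 fold changes with c-FOS against control (horizontal axis) of the 9 subunits other than Fos, with SE as error bars and colours for the 3 types. The dark band holds the middle of all tested genes, from the 25th to the 75th percentile (-0.33 to 0.31), and the light band runs from the 5th to the 95th (-1.38 to 1.47); Fosl1 at 5.43 is the 1 subunit of the 9 outside the light band.

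Reads shared between similar transcripts were considered because Fos became so abundant. Among the protein-coding GENCODE M21 transcripts, the longest run of identical bases that Fos shared with another of the 10 genes was 17 bases, with Fosb, and it was 16 with Fosl2 and 12 with Fosl1. Over all pairs the longest was 20 bases, between Jun and Jund. No source used here gives the read length, and these runs are of mouse transcripts, while the species of the insert is not given. Fosl1 overlaps Ccdc85b, a coiled-coil protein gene, on the opposite strand over 1163 exonic bases of that annotation. Ccdc85b had 626.5 and 625 counts in the control libraries, where Fosl1 had 4.5 and 2, and 992 and 1098 counts in the c-FOS libraries, where Fosl1 had 141 and 159.5. Jun, Jund and Jdp2 also have annotated antisense partners (Junos, Gm11175 and Gm47863), which are not analysed here.

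To compare subunits with each other, CPM values were divided by the deposited gene length in kilobases (CPM per kb). By this measure, Junb, Jund and Fosl2 stood together at the top in control cells, and their libraries overlapped. The levels were 111.7 ± 7.56, 110 ± 6.02 and 107.4 ± 0.965 CPM per kb (SD, n = 2), in that order. Below them came Jun at 43.4 ± 1.95 and Jdp2 at 11.5 ± 0.216 CPM per kb. Atf3 (2.05 ± 0.286), Batf3 (1.22 ± 0.381), Fosb (0.780 ± 0.0944), Fos (0.179 ± 0.0176) and Fosl1 (0.0683 ± 0.0434 CPM per kb) followed without overlap between neighbours, although Batf3 and Fosb differed by little more than the SD of Batf3.

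In c-FOS cells the order began with Fosl2 at 236.8 ± 6.05, Jund at 153.3 ± 0.379, Fos at 145.1 ± 5.59 and Junb at 89.8 ± 4.58 CPM per kb (SD, n = 2). The libraries of Jund and Fos did not overlap, but their means differed by less than 2 SD of Fos. The place of Fos holds only for its deposited length of 2103 bases. If the vector holds the coding part alone, 1140 bases, Fos would stand first. It then made up 52.6% of the FOS-type level, against 46.6% for Fosl2. Jun at 25.8 ± 0.269, Jdp2 at 14.96 ± 0.717, Atf3 at 3.27 ± 0.240, Fosl1 at 3.01 ± 0.0405, Fosb at 1.06 ± 0.113 and Batf3 at 0.571 ± 0.161 CPM per kb followed. Atf3 and Fosl1 differed by about 1 SD of Atf3.

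The summed level of FOS-type transcripts was several times as high with c-FOS, while that of JUN-type transcripts, scaled with TMM factors, lay between the values of the 2 control libraries. The summed FOS-type level was 109.1 and 107.8 CPM per kb in control and 377.8 and 394.1 in c-FOS libraries, 3.56 times as much. Without Fos, the other 3 still summed to 108.9 and 107.6 in control and 236.7 and 245.1 CPM per kb in c-FOS libraries, 2.23 times as much, nearly all of it Fosl2. The summed JUN-type level was 276.1 and 254.1 in control and 265.2 and 272.6 CPM per kb in c-FOS libraries. With library totals it was 289.1 and 266.9 in control and 252.7 and 260.1 CPM per kb in c-FOS libraries, so that both c-FOS libraries were then below both controls. With 2 libraries per group an exact two-sided permutation test cannot go below p = 0.33, and no test of these sums was run.

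The make-up of both pools shifted. Fosl2 made up 99.1% and 99.0% of the FOS-type level in control and 61.6% and 61.2% in c-FOS libraries. Fos made up 0.176% and 0.155% in control and 37.4% and 37.8% in c-FOS libraries. Fosl2 thus remained the larger FOS-type transcript by this measure. That order rests on the length used for Fos: divided by its coding length of 1140 bases, in case the vector holds the coding part alone, Fos made up 52.6% and Fosl2 46.6% in c-FOS cells. Fosl1 rose from 0.0907% and 0.0349% to 0.790% and 0.771% of the pool.

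Among JUN-type transcripts, Jund went from 41.4% and 41.6% of the level in control to 57.7% and 56.3% in c-FOS libraries. Junb went from 42.4% and 41.9% to 32.7% and 34.1%, and Jun from 16.2% and 16.5% to 9.67% and 9.54%. The 2 leading JUN subunits of control cells, which were level with each other per length, were thus apart in c-FOS cells. In CPM without division by length, Jund was already above Junb in control, with means of 316.2 and 205.3 CPM. The ratio of FOS-type to JUN-type level was 0.395 and 0.424 in control and 1.42 and 1.45 in c-FOS libraries. Without Fos it was 0.394 and 0.423 against 0.892 and 0.899. In CPM without division by length the ratio was 0.960 in control and 2.47 in c-FOS cells.

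**Figure D3:**
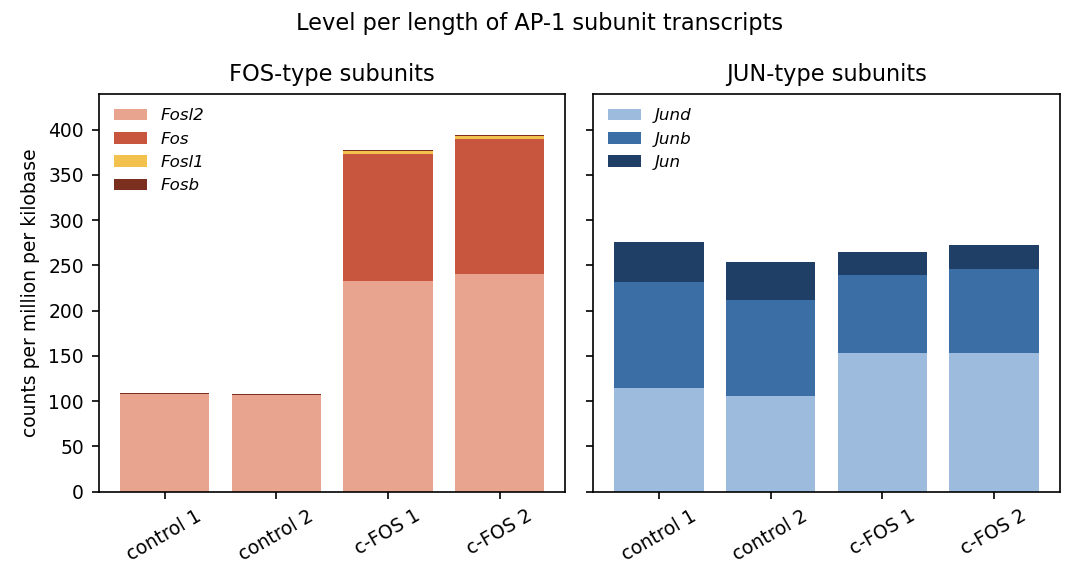
Stacked levels of FOS-type (left) and JUN-type (right) transcripts in each library, in CPM per kilobase of the deposited gene length on a shared vertical axis from 0. The FOS-type bars rise from 109.1 and 107.8 to 377.8 and 394.1 through Fos and Fosl2, while the JUN-type bars, scaled with TMM factors, stay between 254.1 and 276.1 with a larger part for Jund.

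Other bZIP factors that can pair with FOS or JUN proteins moved in both directions. Among 11 tested of 13 listed, 5 rose and 4 fell (median log2 fold change 0.14; 2 without a call), where 33.8% of all tested genes rose and 33.3% fell. With library totals 3 of the listed factors rose and 5 fell. Maf, a large Maf protein, rose from 38.3 and 35.7 to 95.7 and 97.6 CPM (log2 fold change 1.39 ± 0.05, SE), and Ddit3, a stress-induced inhibitor of C/EBP factors, rose by 0.50. Creb5, a CREB-family factor, fell by 0.38 on the log2 scale. Batf and Batf2 were at 0 in every library.

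Kinases and ubiquitin ligases that act on AP-1 proteins showed few large changes. Among 17 tested of 18 listed, 5 rose and 3 fell (median 0.07), and 9 were without a call, where 67.1% of all tested genes were called. With library totals 3 rose and 8 fell, and with upper-quartile factors 5 rose and 6 fell. Fbxw7, part of a ligase that marks phosphorylated Jun for degradation, rose from 28.6 and 29.6 to 46.4 and 45.6 CPM (0.66 ± 0.06, SE), and Map2k1, a kinase of the ERK cascade, rose by 0.58. Map3k1, upstream of the Jun N-terminal kinases, fell from 89.7 and 89.3 to 43.0 and 42.1 CPM (-1.07 ± 0.04), and Rps6ka1, an ERK-activated kinase, fell by 0.98 on the log2 scale.

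Serum response factor and its co-factors regulate the chromosomal Fos gene. Of 6 listed, 4 rose, 1 fell and 1 did not pass (median 0.13), where 33.8% of all tested genes rose and 33.3% fell. There were 2 higher and 2 lower under library totals and 3 higher and 2 lower under upper-quartile factors. Elk3 rose from 92.7 and 90.2 to 232.4 and 232.2 CPM (1.35 ± 0.04, SE) and Elk1 by 0.40 on the log2 scale. Srf itself fell by 0.33, and Mkl1 had the smallest change that passed, 0.11. With library totals Mkl1 was at -0.03 and did not pass. It also did not pass with upper-quartile factors (0.04) or in DESeq2 (0.11).

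Genes long described as AP-1 targets rose for the most part. Among 20 tested of 22 listed, 18 rose and 1 fell, where 33.8% of all tested genes rose. Their median log2 fold change was 1.78 against -0.01 over all genes tested, and Lif, at -0.23, was the 1 without a call. Vim, the intermediate filament gene vimentin, went from 0.572 and 0.734 to 428.9 and 435.1 CPM, and Mmp13, a collagenase, from 0.841 and 0.734 to 111.4 and 126.6 CPM. Hmox1, a haem-degrading enzyme, rose by 0.40 ± 0.08 on the log2 scale (SE). Vegfa, an angiogenic growth factor, fell from 42.2 and 40.2 to 27.9 and 27.4 CPM, and it was the 1 listed target that passed and was lower with c-FOS under TMM factors. The list was drawn up with earlier results of these data known, so that its direction is not independent evidence.

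Immediate early genes outside AP-1 serve as a measure of recent growth factor or handling stimuli. Among 15 tested of 17 listed, 6 rose and 6 fell (median 0.02; 3 without a call), where 67.1% of all tested genes were called. Srf, also listed with its co-factors above, is among the 6 that fell. Cyr61, a matricellular YAP target, rose from 73.2 and 87.1 to 210.4 and 200.6 CPM, and Klf6 rose by 1.24 on the log2 scale. Btg2, an anti-proliferative gene, fell from 36.1 and 32.5 to 6.87 and 7.49 CPM, and Zfp36, which destabilises mRNAs of such genes, fell by 0.93 on the log2 scale. Apart from Lif, and Mkl1 with library totals, upper-quartile factors or DESeq2, the genes of these 5 lists whose changes are quoted passed the threshold named above.

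**Figure D4:**
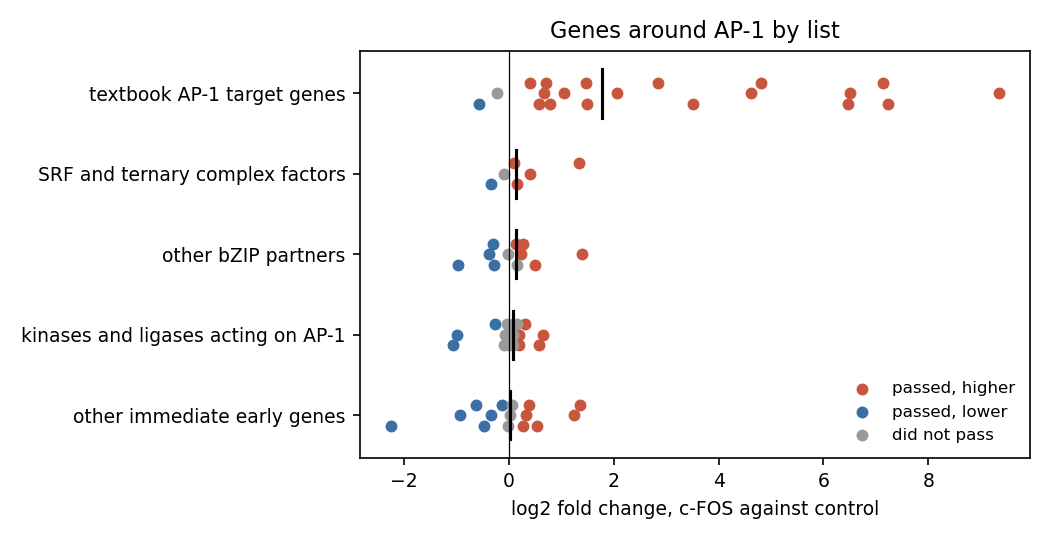
Log2 fold changes with c-FOS against control (horizontal axis) of the tested genes in 5 lists around AP-1, 1 point per gene, red for passed and higher, blue for passed and lower, grey for not passed, with a black bar at the median of each list. The target genes reach from -0.57 to 9.36 with a median of 1.78, while the medians of the other 4 lists lie between 0.02 and 0.14.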

How the data were processed

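RNA-seq of 4 ASZ001 libraries was used, 2 control and 2 c-FOS, grouped by the labels' title and genotype. Per the series design text, reads were aligned with TopHat and analysed with HOMER, and per the submitters' processing notes the build was mm9 and DESeq2 was among the tools; no source used here gives versions. The table deposited by the authors holds expected counts, not normalized, per gene symbol in steps of 0.5, beside a gene length in bases. Of 24909 rows, 7443 were 0 in every library and 26 had a symbol that reads as a date; for 2 symbols on more than 1 row the row with the highest total was kept.

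Counts were rounded to whole numbers. They were tested in R 4.3.3 with edgeR 4.0.16: TMM factors, genes kept by filterByExpr within groups (at least 10 counts, 15 in total), and a quasi-likelihood fit with no covariate; p-values are two-sided and Benjamini-Hochberg adjusted over 12791 genes. The common biological coefficient of variation was 3.38%. CPM use effective (TMM) library sizes, and SE come from the F statistic. All 10 subunits passed the filter. The scripts were tested on simulated data. Replicates differed by more than sampling noise (chi-square per degree of freedom 5.01 in control and 1.98 in c-FOS), so none was treated as a repeat deposit.

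The subunits and lists were chosen with earlier results of these data known. In each of the 5 lists, the 2 genes with the highest and the 2 with the lowest log2 fold change among those that passed are named, except 1 that is not reported here; no gene is named for a pattern like that of a subunit, since 4 libraries in 2 groups give no measure of it. Other genes named were chosen after their values were seen. Cop1 was matched to its older listed symbol through RefSeq. Promoter windows come from RefSeq (GRCm38.p6) and transcripts from GENCODE M21, neither of the build of the counts.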

Additional observations from a re-analysis of the deposited data

How the results depend on the processing

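The number of genes changed stayed within 1.5 times of 8589 in every alternative, between 7176 (DESeq2) and 9096 (library totals), and 7179 to 8878 when 1 library was left out. Of the 10 subunits 8 to 10 passed, 8 in DESeq2 and without c-FOS replicate 1, and Fos had log2 fold changes of 9.51 to 9.75. The calls lost were those of Fosb and Batf3. The replicate numbers are shared between groups, but nothing says they pair libraries: the correlation over genes of the difference between replicates 1 and 2 was -0.0772. With the replicate block, 8464 genes and all 10 subunits passed. Per-length levels moved by construction with the divisor. Without division by length, the FOS-type sum was 632.5 in control and 1701 in c-FOS cells, the JUN-type sum 659.5 and 687.9, the ratio 0.960 and 2.47, the part of Fos 0.0596% and 17.9%, and that of Fosl2 99.5% and 81.5%. With library totals the FOS-type sum was 113.7 and 368 CPM per kb, and the JUN-type sum in c-FOS cells was 256.4. With Fos divided by its coding length, an alternative chosen after seeing the data, the FOS-type sum in c-FOS cells was 508.5 CPM per kb, the ratio 1.89, the part of Fos 0.305% in control and 52.6% in c-FOS cells, and that of Fosl2 98.9% and 46.6%. Mkl1 reversed with library totals, to -0.0313 on the log2 scale. Depth limits Fosl1 and Fos in control, and Batf3 in both groups.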
